A study of Mus musculus with 8 samples.

Results

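The Wnt ligands, their receptors and the proteins that tune the signal were followed in RNA from isolated mouse pancreatic islets. Members were the protein-coding genes whose names mark them as a Wnt, Frizzled (Fzd), secreted Frizzled-related protein (Sfrp), Dickkopf (Dkk) or R-spondin (Rspo), together with Lgr4 to Lgr6, Lrp5, Lrp6, Axin1, Axin2, Ror1, Ror2, Znrf3, Rnf43, Lef1 and the Tcf7 genes. Of 48709 genes in the files, 56 carried such a name, and 31 of them had at least 10 exon reads in 2 or more libraries. The rule used names and read numbers, and it was set with earlier results of these data known. The 2 groups were islets of β-Tead1-KO mice and islets of Flox/Flox mice (Flox), both C57BL/6 and 1 year old, with 2 libraries per genotype and each library run on 2 sequencing lanes. Flox/Flox is the control genotype. The β-Tead1-KO label places the loss of Tead1, a DNA-binding partner of the coactivators YAP and TAZ, in the β-cells, and which promoter drove the deletion is not given in the sources used here. The series' design text states that 3 samples were pooled per library, whereas the description of each library lists 1 or 2 numbers, so the pool size is unclear.

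In Wnt signalling, a secreted Wnt binds a Frizzled receptor together with LRP5 or LRP6, which frees β-catenin from a degradation complex built on axin and lets it act with TCF and LEF factors on target genes. The ubiquitin ligases RNF43 and ZNRF3 take Frizzled receptors off the cell surface, and R-spondins, through LGR receptors, take those ligases off in turn. Other Wnts act without β-catenin, through receptors such as ROR1 and ROR2. In the islet, TCF7L2 is known as a type 2 diabetes susceptibility gene in humans.

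Exon reads totalled 22352518 and 26387280 in β-Tead1-KO libraries 1 and 2, and 21938244 and 14069569 in Flox libraries 1 and 2. The insulin genes took 17.0% and 15.2% of exon reads in the β-Tead1-KO libraries, against 18.3% and 20.4% in the Flox libraries. Tead1 was at 137 and 163 CPM (exon counts relative to library size, scaled with TMM factors) in the β-Tead1-KO libraries, against 101 and 124 CPM in the Flox libraries. It did not pass the test (edgeR log2 fold change 0.41, SE 0.19, adjusted p = 0.347). Reads summed per gene say nothing of single exons, and whole islets include cells other than β-cells, so every direction given here rests on the labels. With 2 libraries per genotype, p-values cover only the spread between these libraries, for which nothing but the pooling note tells how far they are separate animals.

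Cell type markers were read in the same fit, and no listed marker was at 0 reads in all libraries. Over all tested genes, edgeR called 3.36% at an adjusted p below 0.05, and 16.8% had an unadjusted p below 0.05. Both β-Tead1-KO libraries lay below both Flox libraries for 24.2% of all tested genes and above them for 23.9%. The δ-cell markers summed to 629 and 471 CPM in the β-Tead1-KO libraries, against 1824 and 2083 CPM in the Flox libraries, and 2 of 6 tested, Sst and Fam159b, fell. The α-cell markers summed to 9399 and 7480.0 CPM in β-Tead1-KO against 17173 and 13341 CPM in Flox. Polypeptide and ε-cell markers summed to 1078 and 572 CPM in β-Tead1-KO against 2439 and 2617 CPM in Flox; edgeR called 0 of 3, all with an unadjusted p below 0.05. Mesothelial markers summed to 3.27 and 1.54 CPM in β-Tead1-KO against 13.4 and 35.5 CPM in Flox, and 1 of 2 tested, Msln, was called lower, a gene that passed the filter on low counts only through the Flox libraries. Mesenchymal and pericyte markers summed to 345 and 312 CPM in β-Tead1-KO against 275 and 218 CPM in Flox, and 2 of 13, Col1a1 and Col1a2, rose. The largest part of these sums was Rgs5, at 175 and 174 CPM in β-Tead1-KO against 174 and 146 CPM in Flox (log2 fold change 0.12). Both β-Tead1-KO libraries were above both Flox libraries for 8 of the 13 and below for 1, with a median log2 fold change of 0.40. Erythroid markers summed to 317 and 235 CPM in β-Tead1-KO against 121 and 52.5 CPM in Flox, and 1 of 5, Hbb-bt, rose. The β-cell markers summed to 213286 and 185851 CPM in β-Tead1-KO against 220956 and 224340.1 CPM in Flox, sums made up mostly of insulin and Iapp. Of the 10, 1, Slc2a2, fell, 6 had an unadjusted p below 0.05, 7 had both β-Tead1-KO libraries below both Flox libraries, and the median log2 fold change was -0.71. Acinar markers summed to 909 and 7676 CPM in β-Tead1-KO libraries 1 and 2 against 1881 and 6782 CPM in Flox libraries 1 and 2, so library 2 was higher in both genotypes. Lymphocyte markers summed to 20.7 and 1.80 CPM in β-Tead1-KO against 23.4 and 8.11 CPM in Flox, with library 1 higher in both genotypes. Both β-Tead1-KO libraries were above both Flox libraries for 7 of 9 endothelial markers. No endothelial, ductal, macrophage, lymphocyte, or Schwann and neural marker was called in edgeR. The part of these cell types in the Wnt results was not tested, and in whole islets fewer cells of a type and less RNA per cell cannot be told apart.

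Of the 31 members, 5 changed between the genotypes. Rnf43 and Fzd5 rose in β-Tead1-KO islets, and Sfrp5, Rspo4 and Lrp5 fell (edgeR quasi-likelihood test, Benjamini-Hochberg adjusted p below 0.05 over 15014 tested genes). That is 16.1% of the members, beside 3.36% of all tested genes, a comparison made with the members chosen after results of these data were known. By direction, 2 members rose, beside 1.76% of all tested genes that were called higher, and 3 fell, beside 1.60% that were called lower. The members had no common direction. Their median log2 fold change (β-Tead1-KO over Flox) was -0.03, beside -0.01 over all tested genes, with 15 members above 0 and 16 below. The changes were spread over the pathway, at 1 of 7 Frizzled receptors, 1 of 2 LRP co-receptors, 2 of 5 members of the R-spondin and LGR arm with its ligases, and 1 of 4 secreted antagonists. Among the 5 ligands, the 2 ROR receptors and the 6 axin and TCF/LEF genes none was called in edgeR; 1 in each of these 3 groups had an unadjusted p below 0.05, and Wnt4 and Ror1 were among 7 members called with DESeq2, beside 7.59% of all genes tested by it. With limma-voom 5 members were called, beside 2.62% of all genes. Without β-Tead1-KO library 1 or without library 2, 0 members were called in edgeR, with 9 at an unadjusted p below 0.05 each time, and the adjusted p of the 5 genes lay between 0.0551 and 0.259. The count over all genes was 89 and 67 in the same fits. Without Flox library 1 or 2, 6 and 7 members were called, with counts over all genes of 2359 and 964.

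**Figure D1:**
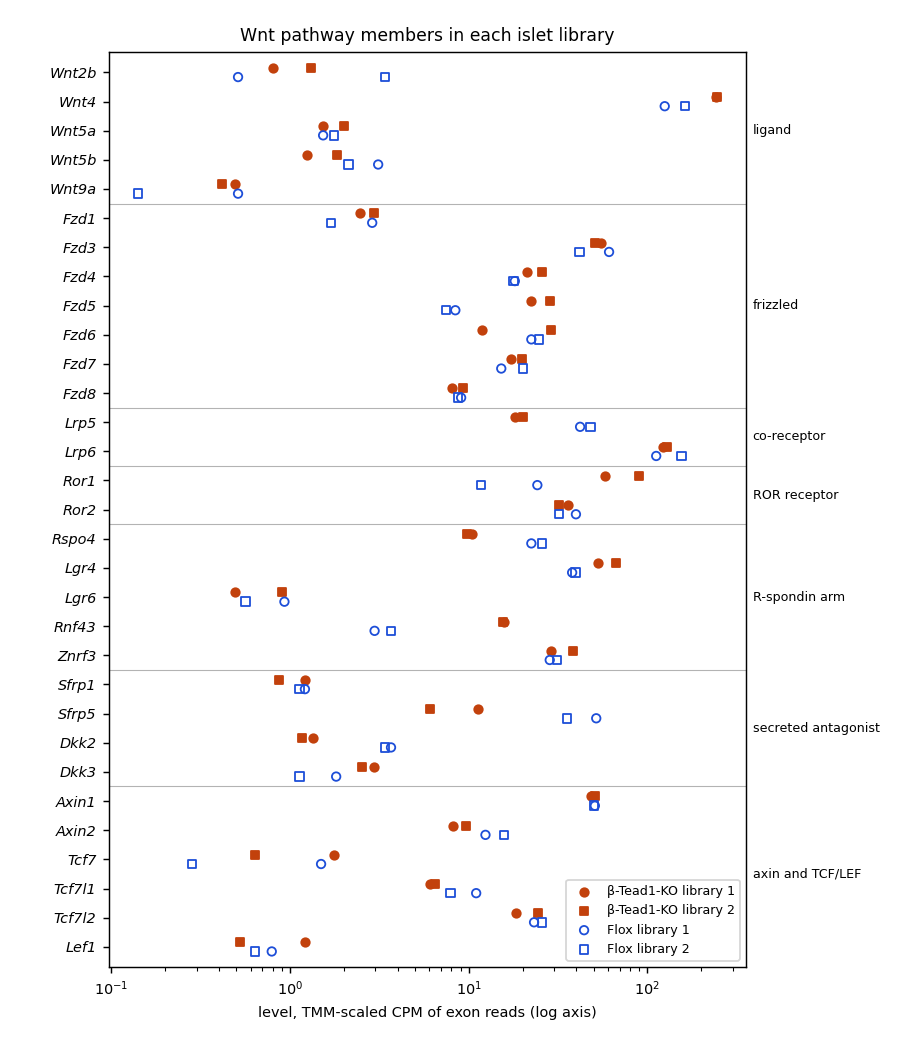
Level of each of the 31 members in each library, as TMM-scaled CPM of exon reads on a log axis, grouped by role. Filled marks are the 2 β-Tead1-KO libraries and open marks the 2 Flox libraries; the marks of Rnf43, Fzd5 and Ror1 stand apart with β-Tead1-KO to the right, and those of Sfrp5, Rspo4, Lrp5 and Dkk2 with β-Tead1-KO to the left.

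**Figure D2:**
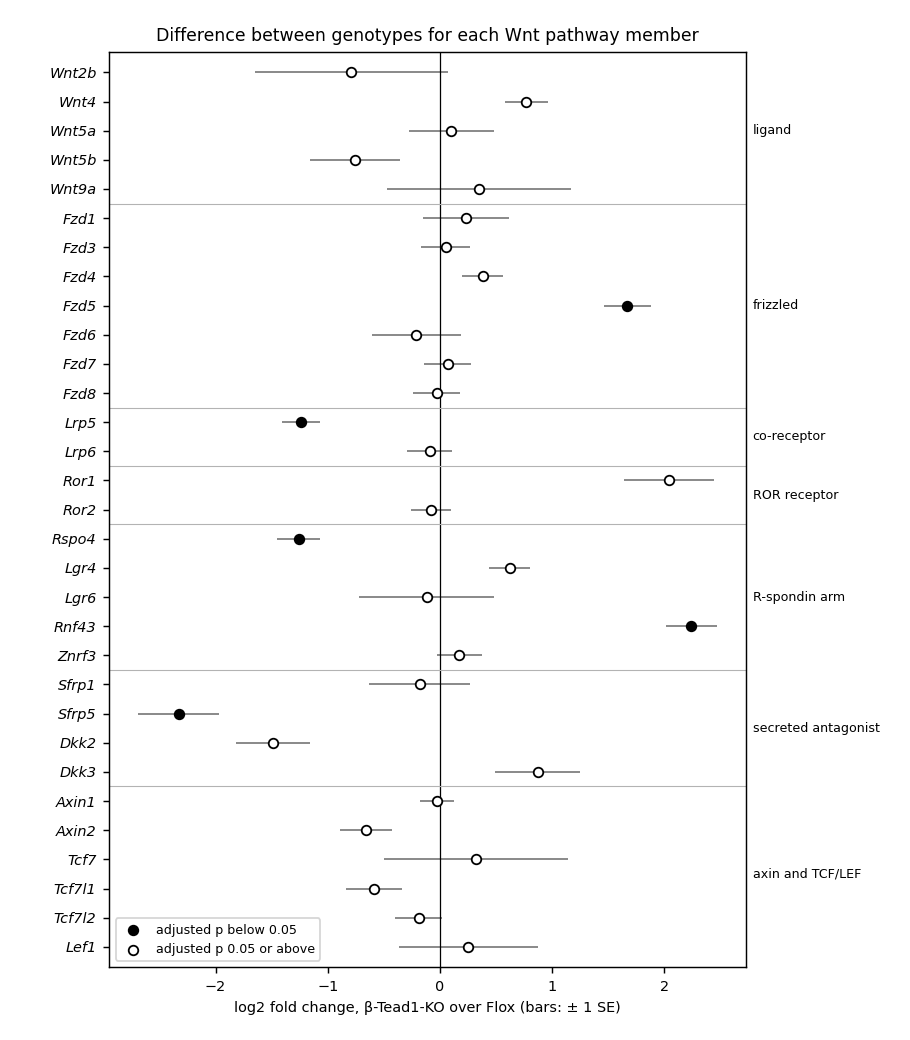
Log2 fold change of each member, β-Tead1-KO over Flox, with bars of 1 SE on either side, n = 2 libraries per genotype. Filled points passed an adjusted p of 0.05: Rnf43 at 2.24 and Fzd5 at 1.67 lie right of 0, and Lrp5 at -1.24, Rspo4 at -1.26 and Sfrp5 at -2.33 lie left of it.

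Promoter sequence was set beside the members that changed, and beside Ror1 with its large fold change, because the 2 factor families of the design and the pathway, TEAD and TCF/LEF, bind short known motifs. RefSeq windows of build GRCm38.p6 (mm10) were found for 21 of the 31 members, 29 windows in all, and the 250 bases before each start were searched on both strands. The TEAD motif GGAATG, which reads as CATTCC on the other strand, was in 1 of 29 member windows, that of Lgr4, or 3.4%, beside 12.6% of all 32851 windows. The TCF/LEF motif CTTTGA, which reads as TCAAAG on the other strand, was in 4 of 29, or 13.8%, beside 13.8% of all windows; these were windows of Fzd1, Lef1, Ror1 and Wnt5b. No member window holds both motifs, so no matches overlap. The windows of the called members with an entry, and of Ror1, are given 5′ to 3′ on the gene's strand, in lower case with motif matches in capitals. They show that among the 4 called genes printed no window holds either motif, that of Ror1 holds 1 TCF/LEF match, and that base composition differs. G and C make up 45.2% of the Rnf43 window, 76.4% of the Fzd5 window, 62.4% of the Ror1 window, 59.6% of the Sfrp5 window and 69.6% of the Rspo4 window. The median is 65.2% over member windows and 52.4% over all windows. For Rnf43 the window of its internal start is shown, and gene-level reads cannot tell its starts apart.
Rnf43 promoter (chr11:87699647-87699896, plus strand): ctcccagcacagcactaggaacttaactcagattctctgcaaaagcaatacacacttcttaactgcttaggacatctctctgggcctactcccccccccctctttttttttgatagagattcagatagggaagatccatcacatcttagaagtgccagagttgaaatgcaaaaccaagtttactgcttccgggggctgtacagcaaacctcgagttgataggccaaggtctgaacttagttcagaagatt
Fzd5 promoter (chr1:64737751-64738000, minus strand): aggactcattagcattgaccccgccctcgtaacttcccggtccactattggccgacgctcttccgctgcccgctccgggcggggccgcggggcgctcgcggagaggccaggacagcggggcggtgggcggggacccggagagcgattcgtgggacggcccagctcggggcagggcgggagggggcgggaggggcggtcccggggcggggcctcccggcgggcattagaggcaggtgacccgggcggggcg
Ror1 promoter (chr4:100095541-100095790, plus strand): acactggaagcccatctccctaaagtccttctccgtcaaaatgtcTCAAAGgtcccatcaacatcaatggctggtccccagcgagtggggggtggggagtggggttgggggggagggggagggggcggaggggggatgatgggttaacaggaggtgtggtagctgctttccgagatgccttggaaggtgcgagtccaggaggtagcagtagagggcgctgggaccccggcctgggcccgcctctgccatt
Sfrp5 promoter (chr19:42202253-42202502, minus strand): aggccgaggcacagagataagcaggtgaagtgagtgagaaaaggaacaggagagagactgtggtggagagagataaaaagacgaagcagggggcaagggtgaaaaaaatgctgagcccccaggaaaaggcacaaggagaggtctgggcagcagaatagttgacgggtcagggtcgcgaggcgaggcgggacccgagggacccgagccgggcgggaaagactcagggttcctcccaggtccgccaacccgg
Rspo4 promoter (chr2:151842677-151842926, plus strand): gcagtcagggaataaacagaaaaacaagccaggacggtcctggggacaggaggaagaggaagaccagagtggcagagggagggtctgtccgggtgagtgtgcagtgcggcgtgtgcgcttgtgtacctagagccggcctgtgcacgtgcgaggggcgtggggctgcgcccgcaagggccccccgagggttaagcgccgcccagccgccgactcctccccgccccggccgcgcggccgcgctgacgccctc

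Rnf43 (ENSMUSG00000034177, mm10 chromosome 11, 87662722 to 87735539, plus strand) encodes a ubiquitin ligase of the cell membrane that removes Frizzled receptors. It was at 15.7 and 15.5 CPM in the β-Tead1-KO libraries, against 2.97 and 3.67 CPM in the Flox libraries. Both β-Tead1-KO values were well above both Flox values and close to each other. The log2 fold change was 2.24 (SE 0.23, edgeR adjusted p = 0.0110). Znrf3, its partner ligase with the same task, was at 28.9 and 38.1 CPM in the β-Tead1-KO libraries, against 28.4 and 31.2 CPM in the Flox libraries, and the groups overlapped. Its log2 fold change was 0.17 (SE 0.20, adjusted p = 0.730). Per kilobase of exon, Rnf43 made up 39.5% and 32.9% of the summed level of both ligases in the β-Tead1-KO libraries, against 11.2% and 12.4% in the Flox libraries.

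Rspo4 (ENSMUSG00000032852, mm10 chromosome 2, 151842927 to 151874668, plus strand) encodes an R-spondin, a secreted protein that raises Wnt responses through LGR receptors and these ligases. It was at 10.4 and 9.72 CPM in the β-Tead1-KO libraries, against 22.4 and 25.7 CPM in the Flox libraries. The groups did not overlap, and the log2 fold change was -1.26 (SE 0.19, edgeR adjusted p = 0.0287). It was the single one of 4 R-spondin genes that met the read minimum. The call did not hold in reads that cross an exon-exon junction, where 90 and 79 reads in the β-Tead1-KO libraries stood against 128 and 97 in Flox (log2 fold change -0.87, edgeR adjusted p = 0.127). Intron reads of Rspo4 ran the other way, with 140 and 722 reads in the β-Tead1-KO libraries against 116 and 251 in Flox (log2 fold change 0.65, adjusted p = 0.748). An antisense gene, Rspo4os, overlaps it with 20 exon reads in all libraries together.

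The LGR receptors bind R-spondins. Lgr4 was at 52.8 and 66.3 CPM in the β-Tead1-KO libraries, against 37.9 and 39.5 CPM in the Flox libraries. Both β-Tead1-KO values were the higher ones, but the difference did not pass the test (log2 fold change 0.62, SE 0.18, edgeR adjusted p = 0.147). Lgr6 was barely expressed, at 0.493 and 0.901 CPM in β-Tead1-KO against 0.929 and 0.564 CPM in Flox (log2 fold change -0.12, adjusted p = 0.947). Lgr5, a stem cell marker in several epithelia, stayed under the read minimum with 6 and 7 exon reads in the β-Tead1-KO libraries against 8 and 6 in Flox.

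Fzd5 (ENSMUSG00000045005, mm10 chromosome 1, 64730558 to 64737751, minus strand) encodes a Frizzled, the seven-pass membrane receptor family that binds Wnts. It was at 22.2 and 28.6 CPM in the β-Tead1-KO libraries, against 8.41 and 7.48 CPM in the Flox libraries. The groups lay far apart, and the log2 fold change was 1.67 (SE 0.21, edgeR adjusted p = 0.0193). None of the other 6 Frizzled genes above the read minimum was called in edgeR, and 0 of them had an unadjusted p below 0.05. Fzd4 was at 21.1 and 25.6 CPM in β-Tead1-KO against 18.1 and 17.8 CPM in Flox (log2 fold change 0.38, adjusted p = 0.387), without overlap of the groups. Fzd3, the most abundant Frizzled per kilobase, was at 55.2 and 50.9 CPM in β-Tead1-KO against 61.0 and 41.7 CPM in Flox (log2 fold change 0.05, adjusted p = 0.943). Fzd7 was at 17.3 and 19.8 CPM in β-Tead1-KO against 15.2 and 20.1 CPM in Flox (log2 fold change 0.07, adjusted p = 0.904). The remaining 3 also overlapped between the groups. Fzd6 was at 11.9 and 28.9 CPM in β-Tead1-KO, a spread that enclosed both Flox values of 22.4 and 24.8 CPM (log2 fold change -0.21, adjusted p = 0.849). Fzd8 was at 8.02 and 9.31 CPM in β-Tead1-KO against 9.06 and 8.68 CPM in Flox (log2 fold change -0.03). Fzd1 had one of 0.23 and was at 2.46 and 2.96 CPM in β-Tead1-KO against 2.88 and 1.69 CPM in Flox. The summed level of the 7 Frizzled genes per kilobase was 29.1 and 34.8 in the β-Tead1-KO libraries, against 30.5 and 27.0 in the Flox libraries, in CPM per kilobase of exon. Within that sum Fzd5 took 11.0% and 11.9% in the β-Tead1-KO libraries, against 3.98% and 4.0% in the Flox libraries.

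Lrp5 (ENSMUSG00000024913, mm10 chromosome 19, 3584828 to 3686564, minus strand) and Lrp6 encode the co-receptors that pair with a Frizzled to engage the β-catenin branch. Lrp5 was at 18.1 and 20.0 CPM in the β-Tead1-KO libraries, against 42.0 and 48.0 CPM in the Flox libraries. Both β-Tead1-KO values were under both Flox values (log2 fold change -1.24, SE 0.17, edgeR adjusted p = 0.0241). Lrp6 was at 123 and 128 CPM in β-Tead1-KO, between the Flox values of 112 and 155 CPM (log2 fold change -0.09, SE 0.20, adjusted p = 0.870). Lrp5 made up 13.2% and 13.9% of the summed level of both co-receptors per kilobase in the β-Tead1-KO libraries, against 27.9% and 24.1% in the Flox libraries.

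The ROR receptors are tyrosine kinase-like Wnt receptors, and ROR2 is known to bind WNT5A. Ror1 (mm10 chromosome 4, 100095791 to 100444765, plus strand) was at 57.8 and 90.0 CPM in the β-Tead1-KO libraries, against 24.2 and 11.7 CPM in the Flox libraries. The groups did not overlap, yet the libraries of each genotype differed widely, and the log2 fold change of 2.04 (SE 0.40) missed the threshold (edgeR adjusted p = 0.0596). It passed on unique exon reads (adjusted p = 0.0385), on junction reads (0.0323), on lane 1 alone (0.0394) and with DESeq2 (4.28e-06). It did not pass with limma-voom (0.0596), without a filter (0.0668), on lane 2 alone (0.0614) or on intron reads (0.257). Without β-Tead1-KO library 1 or 2 its log2 fold change was 2.35 or 1.70, and without Flox library 1 or 2 it was 2.67 or 1.61. Ror2 was at 35.8 and 32.2 CPM in β-Tead1-KO against 39.8 and 32.1 CPM in Flox, a log2 fold change of -0.08 (SE 0.18, adjusted p = 0.872). Ror1 took 54.3% and 67.3% of the summed level of both receptors per kilobase in the β-Tead1-KO libraries, against 31.0% and 21.2% in the Flox libraries.

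**Figure D3:**
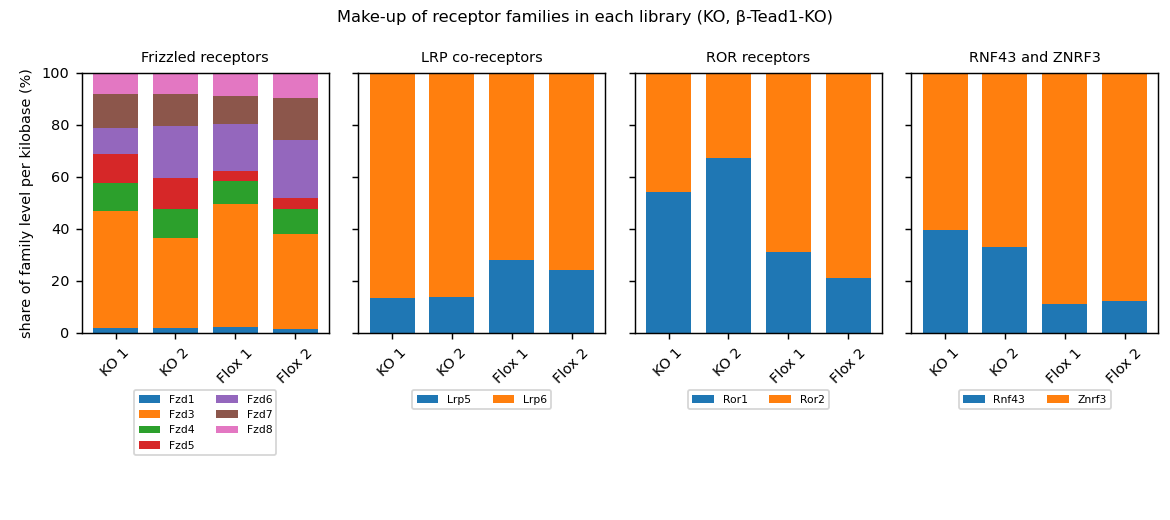
Share of each gene in the summed level of its receptor family, in percent of CPM per kilobase of exon, for β-Tead1-KO libraries 1 and 2 and Flox libraries 1 and 2; bars add to 100%. Fzd5 takes 11.0% and 11.9% of the Frizzled sum in β-Tead1-KO against 3.98% and 4.0% in Flox, and Lrp5 has a smaller, Ror1 and Rnf43 a larger share in β-Tead1-KO.

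Among the secreted antagonists, Sfrp5 (ENSMUSG00000018822, mm10 chromosome 19, 42197971 to 42202252, minus strand) encodes a decoy that carries a Frizzled-like Wnt-binding domain. It was at 11.3 and 6.08 CPM in the β-Tead1-KO libraries, against 51.7 and 35.5 CPM in the Flox libraries. The groups lay far apart (log2 fold change -2.33, SE 0.36, edgeR adjusted p = 0.0312). Per kilobase, Sfrp5 was the second highest member in Flox, at a mean of 23.0 CPM per kilobase, and averaged 4.57 CPM per kilobase in β-Tead1-KO. Sfrp1, of the same family, was near 1 CPM in every library, at 1.21 and 0.863 CPM in β-Tead1-KO against 1.21 and 1.13 CPM in Flox (log2 fold change -0.18, adjusted p = 0.887).

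Dickkopf proteins bind LRP5 and LRP6, apart from the divergent Dkk3. Dkk2 was at 1.34 and 1.16 CPM in the β-Tead1-KO libraries, against 3.67 and 3.39 CPM in the Flox libraries, which is 30 and 31 exon reads in β-Tead1-KO against 79 and 48 in Flox. The groups did not overlap, and the difference did not pass the test (log2 fold change -1.49, SE 0.33, edgeR adjusted p = 0.0808). Dkk3 was at 2.96 and 2.51 CPM in β-Tead1-KO against 1.81 and 1.13 CPM in Flox, also without overlap (log2 fold change 0.87, SE 0.38, adjusted p = 0.339).

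Wnt4, a ligand that has been linked to β-cell maturation in mouse, was by far the most abundant ligand. It was at 242 and 246 CPM in the β-Tead1-KO libraries, against 125 and 162 CPM in the Flox libraries. Both β-Tead1-KO values were the higher ones, and the difference did not pass the test in edgeR (log2 fold change 0.77, SE 0.19, adjusted p = 0.107), while DESeq2 gave an adjusted p of 0.00590. Wnt4 made up 98.2% and 97.6% of the summed level of the 5 ligands per kilobase in the β-Tead1-KO libraries, against 94.7% and 94.9% in the Flox libraries. Its intron reads were 1395 and 4250 in β-Tead1-KO against 503 and 959 in Flox (log2 fold change 1.47, edgeR adjusted p = 0.258). The other 4 ligands were at 3.39 CPM or less in every library. Wnt5a, the best known ligand of the β-catenin-independent branch, was at 1.52 and 1.99 CPM in β-Tead1-KO against 1.53 and 1.76 CPM in Flox (log2 fold change 0.10, adjusted p = 0.924). Wnt5b was at 1.25 and 1.84 CPM in β-Tead1-KO against 3.11 and 2.12 CPM in Flox (log2 fold change -0.76, adjusted p = 0.422). Its span overlaps Fbxl14 on the other strand, a gene with 3485 exon reads in all libraries together. Wnt5b exon reads were 100% unique, but whether this overlap affects its level was not tested. Wnt2b and Wnt9a had log2 fold changes of -0.79 and 0.35 (adjusted p = 0.713 and 0.880). The remaining 14 of the 19 Wnt genes were under the read minimum.

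Inside the cell, Axin1 and Axin2 are scaffolds of the complex that degrades β-catenin, and Axin2 is itself a target of β-catenin that feeds back on it. Axin2 was at 8.11 and 9.65 CPM in the β-Tead1-KO libraries, against 12.4 and 15.7 CPM in the Flox libraries. Both β-Tead1-KO values were the lower ones, and the difference did not pass the test (log2 fold change -0.66, SE 0.23, edgeR adjusted p = 0.218). Axin1 was even across libraries, at 48.1 and 50.6 CPM in β-Tead1-KO against 50.8 and 50.2 CPM in Flox (log2 fold change -0.03, adjusted p = 0.940). Tcf7l2 was at 18.3 and 24.4 CPM in β-Tead1-KO against 23.2 and 25.7 CPM in Flox (log2 fold change -0.19, SE 0.21, adjusted p = 0.710). Tcf7l1, often a repressor at Wnt targets, was at 6.09 and 6.49 CPM in β-Tead1-KO against 11.0 and 7.90 CPM in Flox (log2 fold change -0.59, adjusted p = 0.326). Lef1 had a log2 fold change of 0.25 and Tcf7 one of 0.32 (adjusted p = 0.890 and 0.893), each at 1.75 CPM or less in every library, and 33.7% of Tcf7 exon reads were unique, so its level is uncertain.

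Per kilobase of exon and averaged over all 4 libraries, Wnt4 was the highest member at 46.1 CPM per kilobase. Sfrp5 followed at 13.8, a mean over groups that differed, and Axin1 at 13.0, Lrp6 at 12.9 and Fzd3 at 12.3 CPM per kilobase came next. Each step between neighbours in this order after Wnt4 was smaller than the spread over libraries of at least 1 of the 2 genes, so they could not be ordered. The same held for Lgr4 at 8.35, Ror2 at 8.24 and Ror1 at 7.97 CPM per kilobase. At the low end Lgr6 at 0.105 and Lef1 at 0.0899 CPM per kilobase could not be ordered either. Between the genotypes, 14 of the 31 members had groups that did not overlap, 7 with β-Tead1-KO above and 7 below, beside 48.0% of all tested genes. At an unadjusted p below 0.05, 10 members differed, beside 16.8% of all tested genes.

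At the read minimum, Wnt9a was just inside it with 11 and 11 exon reads in the β-Tead1-KO libraries against 11 and 2 in Flox, and Lgr6 had 11 and 24 reads in β-Tead1-KO against 20 and 8 in Flox. Just outside it, Rspo2 had 4 and 4 reads in the β-Tead1-KO libraries against 9 and 4 in Flox. Fzd10 was outside because 38 of its 40 reads came from Flox library 2, with 0 and 0 reads in the β-Tead1-KO libraries and 2 in Flox library 1. Of the 25 genes left out, 4 had 0 reads in every library, and the 24 apart from Fzd10 had at most 9 reads in any library. No kept member had met the minimum through 1 genotype alone.

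Junction and intron reads gave a second look at the members, on reads that were filtered and scaled on their own. On junction reads 4 of 19 tested members were called in edgeR, beside 4.20% of all genes tested there: Rnf43 and Ror1 higher, Lrp5 and Sfrp5 lower. Their junction log2 fold changes were 2.22, 1.84, -1.26 and -2.18. Fzd5, whose coding sequence lies in 1 exon, had too few junction reads to be tested, with 5 and 5 in β-Tead1-KO against 6 and 2 in Flox. On intron reads 0 of 22 tested members were called in edgeR, beside 0.748% of all genes tested there. An unadjusted p below 0.05 was reached by 4 of these members, beside 1310 of 14443 genes tested there. The intron log2 fold changes of Rnf43, Ror1, Lrp5 and Sfrp5 were 1.92, 2.06, -1.41 and -1.88, on the same side of 0 as the exon reads. Intron reads made up 29.4% and 38.0% of gene reads in β-Tead1-KO libraries 1 and 2, against 28.8% and 43.1% in Flox libraries 1 and 2, so library 2 had the larger share in both genotypes.

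**Figure D4:**
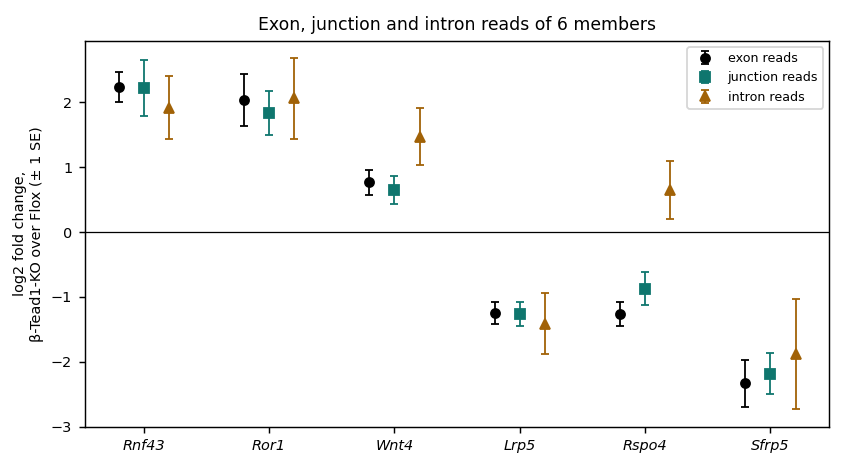
Log2 fold change, β-Tead1-KO over Flox, of 6 members on exon, junction and intron reads, with bars of 1 SE, n = 2 libraries per genotype. Rnf43, Ror1, Wnt4, Lrp5 and Sfrp5 keep their side of 0 in all 3 read classes, whereas Rspo4 is at -1.26 on exon reads and at 0.65 on intron reads.

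The rest of the pathway was read from 4 lists, of which 85 genes outside the members were tested and 7 were called, 3 higher and 4 lower, with a median log2 fold change of 0.02. That is 8.24%, beside 3.36% of all tested genes, or 1.76% called higher and 1.60% called lower. The lists were chosen with earlier results known, and 1 of the 7, Tnfrsf19, passed the filter on low counts only through the β-Tead1-KO libraries. Of 31 genes of the β-catenin destruction complex, Dishevelled and nuclear partners, 1 rose and 2 fell, or 9.68% called beside 3.36% of all tested genes (median -0.04). Tle4, a Groucho corepressor that TCF factors recruit, was at 40.6 and 43.1 CPM in the β-Tead1-KO libraries, against 11.9 and 12.6 CPM in the Flox libraries (log2 fold change 1.77, SE 0.17, edgeR adjusted p = 0.00813). Its relative Tle3 moved the other way, at 55.0 and 57.0 CPM in β-Tead1-KO against 125 and 157 CPM in Flox (log2 fold change -1.33, SE 0.18, adjusted p = 0.0219). Ctnnbip1, which blocks the binding of β-catenin to TCF factors, was at 9.99 and 9.76 CPM in β-Tead1-KO against 21.5 and 21.9 CPM in Flox (log2 fold change -1.13, adjusted p = 0.0330). β-catenin itself (Ctnnb1) was at 434 and 385 CPM in β-Tead1-KO against 322 and 362 CPM in Flox and did not pass the test (log2 fold change 0.26, adjusted p = 0.556).

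Of 24 tested genes of planar polarity and β-catenin-independent receptors, 1 rose and 1 fell, or 8.33% called beside 3.36% of all tested genes (median log2 fold change 0.06). Rhou, an atypical small GTPase known as a Wnt-induced gene, was at 55.1 and 50.6 CPM in the β-Tead1-KO libraries, against 18.3 and 18.4 CPM in the Flox libraries (log2 fold change 1.52, SE 0.16, edgeR adjusted p = 0.0114). Celsr1, a polarity cadherin, was at 0.941 and 1.20 CPM in β-Tead1-KO against 8.78 and 15.2 CPM in Flox (log2 fold change -3.46, SE 0.38, adjusted p = 0.0126). Of 17 tested genes known elsewhere as Wnt/β-catenin targets, Nrcam fell and Tnfrsf19 was called higher, or 11.8% called beside the same 3.36%, with a median of -0.01. The list summed to 1033 and 1014 CPM in β-Tead1-KO against 1499 and 588 CPM in Flox, so the Flox libraries differed widely. Jun was at 988 and 104, Myc at 21.6 and 2.40 and Cyr61 at 28.8 and 2.47 CPM in Flox libraries 1 and 2. Ccnd1, at 144 and 158 CPM, was not split in this way. None of these 4 was called. Nrcam, a neural adhesion molecule, was at 2.11 and 2.14 CPM in β-Tead1-KO against 16.3 and 34.6 CPM in Flox (log2 fold change -3.58, adjusted p = 0.0153). Tnfrsf19 was at 11.6 and 12.2 CPM in β-Tead1-KO against 0.279 and 0 CPM in Flox. Since it met the filter through the β-Tead1-KO libraries alone, its call supports no more than these levels. Of 15 tested genes of Wnt secretion and extracellular modulation none was called in edgeR, and 4 had an unadjusted p below 0.05, beside 16.8% of all tested genes (median 0.30). Wls, which carries Wnts to the cell surface, was at 407 and 369.8 CPM in β-Tead1-KO against 283 and 236 CPM in Flox (log2 fold change 0.58, edgeR adjusted p = 0.195). Sost lay on the other side, at 0.538 and 0.676 CPM in β-Tead1-KO against 1.81 and 1.83 CPM in Flox (log2 fold change -1.57, adjusted p = 0.139). Of the 15 genes, 11 had a log2 fold change above 0 and 4 below.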

How the data were processed

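RNA-seq reads per gene came from whole islets of 2 genotypes. The deposited tables give, per the file headers, raw counts of exon, unique exon, junction and intron reads per gene. The submitters' processing notes name mm10 as build. The sources used here name no aligner, counter, annotation release or strand setting. Length-normalized columns were not used. The 8 deposited samples are 4 libraries on 2 lanes each, and lane counts were summed. Counts were filtered with filterByExpr (minimum count 10), TMM-scaled and tested with edgeR 4.0.16 (quasi-likelihood, R 4.3.3), with Benjamini-Hochberg adjustment over 15014 genes at 0.05. The SE is the fold change divided by the root of F. The biological coefficient of variation was 24.3%. The fit was also run on data simulated from its own model. That run checked the median recovery of set fold changes, and not the calls in these libraries. Alternatives used DESeq2 1.42.0, limma 3.58.1 (voom), other scalings, filters, read classes and lanes, a replicate block, and each library left out. edgeR's legacy mode was added after seeing the data. Full values are given for members past the threshold, for those with separated groups and an absolute log2 fold change of at least 1, and for 11 members of central function. Members and lists were chosen with earlier results of these data known.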

Additional observations from a re-analysis of the deposited data

How the results depend on the processing

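With 2 libraries per genotype, the count of called members depended most on single libraries and on the read class. It was 5 in the edgeR fit reported and ranged from 0 to 7 with 1 library left out, was 0 on intron reads and 8 with a replicate block, which adds Ror1, Wnt4 and Dkk2. It was 4 to 7 under the other settings. All genes called numbered 504, and 67 to 2359 with 1 library left out, 1117 with DESeq2, 108 on intron reads and 1157 with the replicate block. Deviations of same-numbered libraries from their genotype mean had a correlation of 0.392. With 2 libraries per genotype this value is the same for both numbers by construction, so it is a single comparison. No label ties numbers to a batch, and the libraries were not treated as paired. Of 469 alternative values, 411 kept direction and side of the threshold, 14 lost it, 11 gained it and 33 changed sign; the cause was not tested. Sign changes other than that of Rspo4 on intron reads (0.65) concerned members that were not called. On intron reads the log2 fold change was -0.12 for Fzd3, -0.21 for Fzd7, -0.39 for Lef1 and -0.29 for Tcf7. It was 0.08 for Axin1 on junction reads, 0.01 for both Axin1 and Fzd8 without a filter, -0.04 for Wnt5a on lane 1, and 0.11 for Fzd8 and -0.0012 for Fzd3 on lane 2. With 1 library left out, log2 fold changes ranged from -0.05 to 0.03 for Axin1, -0.08 to 0.69 for Fzd1, -0.20 to 0.36 for Fzd3, -0.97 to 0.32 for Fzd6, -0.10 to 0.28 for Fzd7 and -0.13 to 0.10 for Fzd8. They ranged from -0.42 to 0.76 for Lef1, -0.61 to 0.33 for Lgr6, -0.30 to 0.16 for Lrp6, -0.23 to 0.09 for Ror2, -0.41 to 0.07 for Sfrp1, -0.52 to 2.05 for Tcf7 and -0.40 to 0.03 for Tcf7l2. They ranged from -1.65 to 1.06 for Wnt2b, -0.09 to 0.31 for Wnt5a, -0.18 to 1.65 for Wnt9a and -0.03 to 0.38 for Znrf3. For the called members they stayed on their side of 0, from 2.10 to 2.39 for Rnf43, 1.5 to 1.88 for Fzd5, -2.81 to -1.93 for Sfrp5, -1.32 to -1.14 for Lrp5 and -1.34 to -1.16 for Rspo4.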
